A study of Homo sapiens with 16 samples.

Results

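Histone genes were followed in RT112 and SCaBER, a pair of human bladder cancer cell lines, after siRNA against FOXA1, a pioneer transcription factor of luminal cells. A gene was taken as a member when its name in the deposited count table began with HIST1H, HIST2H, HIST3H, HIST4H, H2AF, H3F3 or H1F and was not that of a pseudogene or an antisense RNA. Of 122 rows with such a name, 30 carried a pseudogene name, 1 was antisense (H1FX-AS1) and 5 were annotated as pseudogenes. The remaining 86 genes of 58721 rows were kept. They comprise 70 clustered genes (6 for H1, 17 for H2A, 18 for H2B, 14 for H3 and 15 for H4) and 16 variant genes outside that nomenclature (4 for H1, 9 for H2A and 3 for H3). Chromosome 6 holds 55 of the 86 and chromosome 1 holds 15.

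Each line received siControl.1, siControl.2, siFOXA1.1 or siFOXA1.2 at 10 nM per the labels, with 2 libraries for each siRNA and line, 16 in all. RT112 was grown in RPMI and SCaBER in DMEM, both with serum, so that line and medium cannot be told apart. The 2 libraries of a siRNA are numbered as experiment batches, and nothing in the labels says whether they came from separate cultures beyond that number. Library totals ranged from 4528513 to 7604581 counts, and 3 counts, used as the floor of detection, were worth 0.394 to 0.662 CPM (a gene's share of its library's counts, on a common scale). Intervals and floors cover counting error only. In bulk RNA, fewer cells that express a gene and less RNA per cell cannot be told apart.

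FOXA1 itself was measured first. In RT112 its level was 35.0, 29.4, 18.2 and 28.4 CPM in the siControl libraries, 1.32 and 3.24 CPM under siFOXA1.1, and 9.18 and 16.0 CPM under siFOXA1.2. All 4 knock-down libraries lay under all 4 controls. The log2 fold change was -3.44 ± 0.47 (SE) under siFOXA1.1 (edgeR quasi-likelihood test, adjusted p = 2.19e-05) and -1.1 ± 0.39 under siFOXA1.2 (adjusted p = 0.205), so only the first passed the threshold of 0.05. In SCaBER FOXA1 was close to the floor, at 0.499 to 2.43 CPM in the controls and 0 to 0.951 CPM under the FOXA1 siRNAs, and was not tested. The labelled lines differed in their markers: the sum of 5 luminal genes was 842 to 1111 CPM in RT112 and 68.4 to 118 CPM in SCaBER, and that of 5 basal genes 148 to 296 CPM and 1830 to 3255 CPM. Under siControl KRT20 was at 0 in both lines and DSG3 at 0 in RT112.

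Histones package DNA. The clustered genes are made mainly in S phase, when new DNA must be packaged, and most of their mRNAs end not in a poly(A) tail but in a short stem-loop that is bound by SLBP. Most variant genes lie apart, are polyadenylated and are expressed through the cell cycle. Some clustered genes also have longer, polyadenylated transcripts, which are known from cells that have left the cycle. The kit used here reads polyadenylated ends, so that a clustered gene is counted only as far as its RNA carries or mimics such an end.

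The 16-base consensus of the histone stem-loop was searched in the annotated transcripts, on the transcript strand. It was found in 58 of the 70 clustered genes and in 1 of the 16 variants, H2AFX. Of the 70, 8 had no matched transcript to search. Among 19833 protein-coding genes 67 had it (0.3378%). The sequences below are those of the members that carry the results, with the 6-base arms in capitals and the 4-base loop in lower case.
HIST1H1B, HIST1H1D, HIST1H2AC and HIST2H2BE, shared by 35 members: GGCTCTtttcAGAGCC
HIST1H2BD, shared by 9 members: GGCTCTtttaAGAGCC
HIST1H4C, shared by 8 members: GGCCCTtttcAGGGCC
HIST2H2AC: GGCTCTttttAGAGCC
H2AFX: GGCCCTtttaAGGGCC
A second feature separated genes with the same stem-loop. A polyadenylation signal (AATAAA or ATTAAA, transcript strand) stood in the last 50 bases of an annotated transcript in 18 of the 70 clustered genes and in 15 of the 16 variants. Transcripts ran on for 1128 bases after the stem-loop in HIST1H2AC, 1110 bases in HIST3H2A and 1729 bases in HIST2H2BE, but for only 5 bases in HIST1H4C, HIST1H1B, HIST1H1D, HIST1H1E and HIST2H2AC. HIST1H2BD has a separate transcript with such a signal. Of the clustered genes, 44 had no such transcript and 8 could not be matched to the annotation by identifier. This grouping was made after the values had been seen and is given as a description, with no test.

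Most members were detected in some library. At least 3 counts were present in 64 of 86 members in some library, in 20 in every library, and in 31 to 45 members of a single library. In 20 members no library held a count. The variants gave 65.8% of all histone counts with 16 genes, and the clustered genes 34.2% with 70. HIST1H4C, which encodes H4, gave 22.5% alone. None of the 14 clustered H3 genes reached the floor in all libraries.

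**Figure D1:**
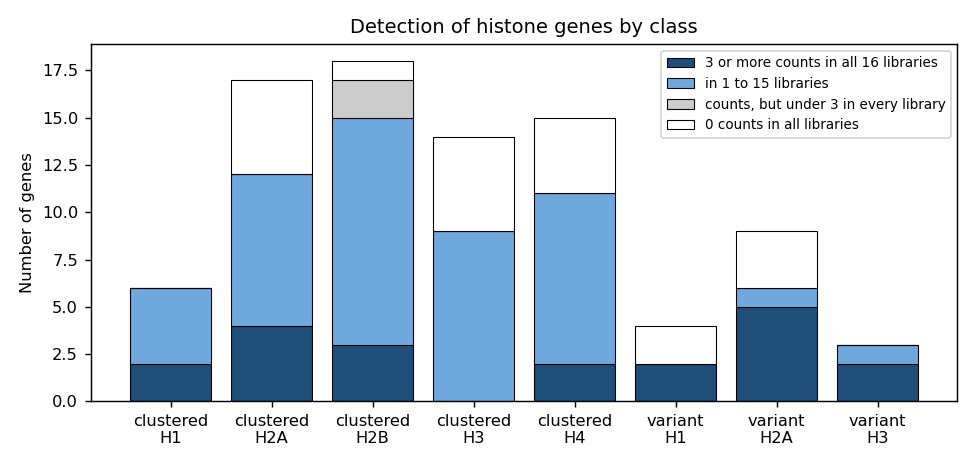
Number of histone genes in each class (vertical axis) that reached 3 counts in all 16 libraries, in 1 to 15 libraries or in none, or that had no count. The clustered H3 genes have no member in the first category, whereas 9 of the 16 variants are in it.

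Identical copies cannot be resolved by counting reads placed once. HIST2H2AA3, HIST2H2AA4, HIST2H4A, HIST2H4B, HIST2H3A and HIST2H3C held 4 counts together over all libraries, and 5 of these 6 held none. Their values are uncertain for that reason and say nothing of their expression. The same limit applies to other near-identical members and to H3F3A and its processed pseudogenes.

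In the siControl libraries the order of levels was led by the same genes in both lines. On the authors' TPM scale, which divides by gene length, HIST1H4C was at 2638 ± 380 TPM in RT112 and 6025 ± 200 TPM in SCaBER (SD, n = 4 libraries). HIST1H1C, a linker histone, followed at 480 ± 31.5 and 626 ± 98.0 TPM, H2AFZ, which encodes H2A.Z, at 301 ± 46.1 and 711 ± 97.2 TPM, and H3F3B, which encodes H3.3, at 226 ± 52.03 and 311 ± 40.8 TPM. HIST1H1C and H2AFZ did not differ beyond their spread in SCaBER, and neither did H3F3B and H1FX (306 ± 166 TPM). A kit that reads 1 end of a transcript makes short genes high on this scale.

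The clearest differences from the controls were under siFOXA1.1. A stronger loss of FOXA1 and other effects of that 1 siRNA cannot be told apart here. In RT112, 17 of 31 tested members passed the test, 5 higher and 12 lower, where 32.6% of all 11986 genes passed (15.6% higher, 17% lower). The members' median log2 fold change was -0.42, beside -0.01 over all genes. In SCaBER 10 of 27 passed, 2 higher and 8 lower, where 9.26% of 11902 genes passed (4.47% higher, 4.79% lower), with a median of -0.58 beside 0.01. Of the 27 members tested in both lines, 9 passed in both, each in the same direction, which is 56.2% of the 16 RT112 calls among them and 90.0% of the 10 SCaBER calls. The sign was the same in 26 of the 27. The same shares over all genes are not given, so this agreement is not read as particular to histone genes. The share of counts from mitochondrial genes was 25.7 to 28.2% in RT112 under siFOXA1.1 and 18.0 to 21.2% in the controls. In SCaBER it was 11.9% in both siFOXA1.1 libraries and 10.3 to 11.4% in the controls. Its part in these changes was not tested.

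**Figure D2:**
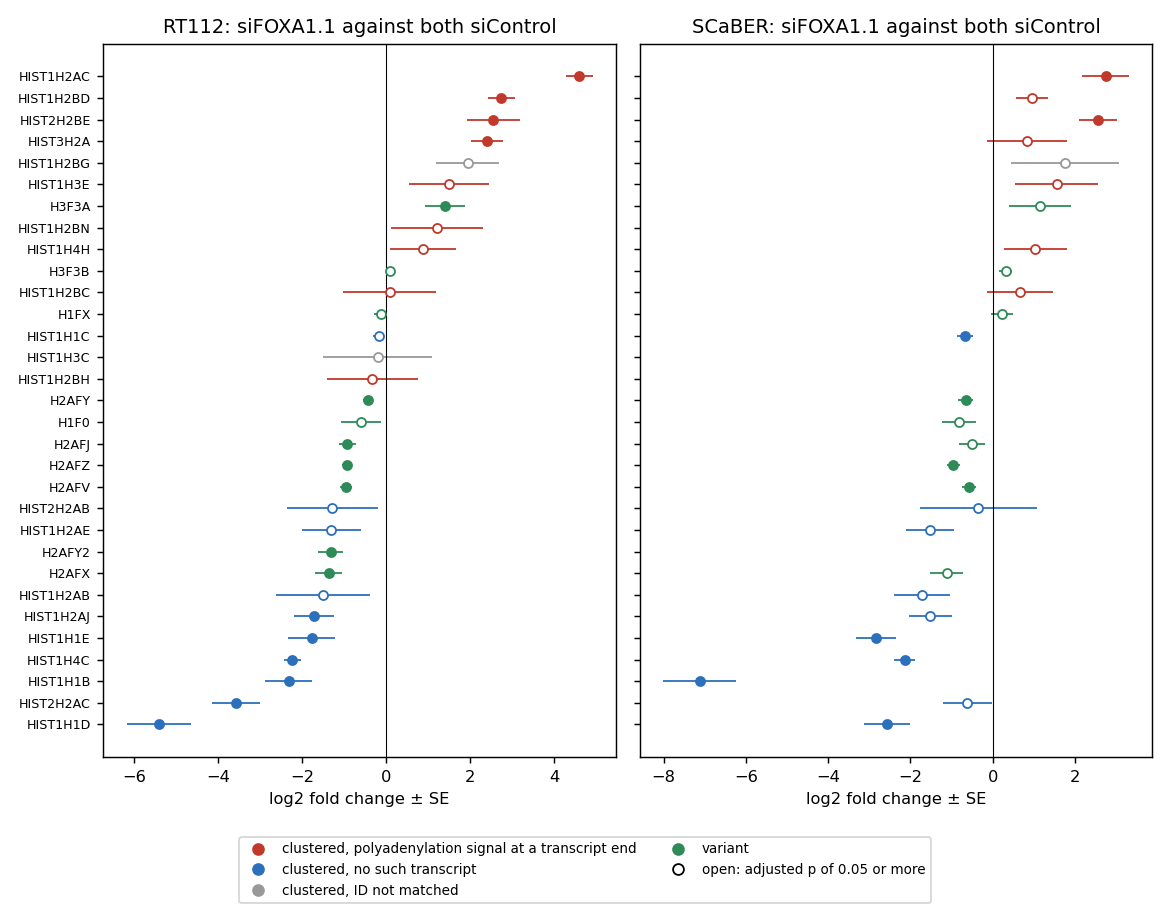
Log2 fold change of siFOXA1.1 against both siControl (horizontal axis, bars are SE) for each tested histone gene in RT112 and SCaBER, filled where the adjusted p was under 0.05. The tested clustered genes without an annotated polyadenylation signal (blue) are all to the left of 0 in both lines, and HIST1H2AC is the highest point in each.

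In the grouping by annotated transcript end, made after the values had been seen, the sign of the change went with the group in most tested members. HIST1H2BG and HIST1H3C, not matched to the annotation, are in neither group. Clustered genes without a polyadenylation signal at a transcript end were below 0 in 10 of 10 tested members in each line, with medians of -1.74 in RT112 and -1.61 in SCaBER on the log2 scale. Those with one were above 0 in 8 of 9 members in RT112 (median 1.5) and in 7 of 7 in SCaBER (median 1.04). The 1 below 0 in RT112, HIST1H2BH (-0.32), has a single annotated transcript, which ends 5 bases after its stem-loop. HIST1H4J of the same group, tested in neither line, also has 1 transcript, ending 6 bases after the stem-loop. Over all genes tested, 6056 of 11986 were below 0 in RT112 and 5855 of 11902 in SCaBER. These tallies cover tested members only, and the filter can keep a gene through the group in which it is high. Untested members, near the floor, went both ways. From siControl to siFOXA1.1, mean CPM without a signal in RT112 went from 0.402 to 3.46 (HIST1H2BK) and from 2.54 to 0.22 (HIST1H2AG). With a signal in SCaBER it went from 1.07 to 0.0947 (HIST1H2BN) and from 0.559 to 2.24 (HIST1H3H). By calls, the first group had 6 lower and none higher in RT112 and 5 lower and none higher in SCaBER. The second had 4 higher in RT112 and 2 in SCaBER, with none lower. Of all genes, 17% were called lower and 15.6% higher in RT112, and 4.79% and 4.47% in SCaBER.

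Among the genes that fell, HIST1H4C had the most counts. Its level in RT112 was 599, 489, 588 and 662 CPM in the controls, 155 and 73.1 CPM under siFOXA1.1, and 643 and 582 CPM under siFOXA1.2. In SCaBER it was 1078, 948, 1072 and 1005 CPM, then 297 and 154 CPM, then 1022 and 849.7 CPM. The siFOXA1.1 libraries lay under the other 6 in both lines. The log2 fold change was -2.23 ± 0.20 in RT112 (edgeR, adjusted p = 1.87e-07) and -2.14 ± 0.25 in SCaBER (adjusted p = 0.000133).

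Of the 4 tested clustered linker histone genes, whose proteins bind DNA between nucleosomes, 3 fell in RT112 and 4 in SCaBER. Of all genes, 17% were called lower in RT112 and 4.79% in SCaBER. HIST1H1B in SCaBER was at 13.1, 24.8, 14.8 and 7.95 CPM in the controls, but at 0.189 and 0 CPM under siFOXA1.1, which is 1 count in both libraries together against 365 in the controls. The level was 193-fold lower, with an exact 95% counting interval of 34.3 to 7626-fold. In RT112 it was at 17.2, 13.1, 19.0 and 13.3 CPM in the controls and at 4.10 and 1.62 CPM under siFOXA1.1 (log2 fold change -2.32 ± 0.57, edgeR adjusted p = 0.00409). Under siFOXA1.2 HIST1H1B overlapped the controls in both lines.

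HIST1H1D showed the larger drop in RT112. Its controls held 14.3, 14.0, 12.5 and 16.8 CPM and its siFOXA1.1 libraries 0.586 and 0 CPM, or 4 counts against 417, a 49.1-fold lower level (exact interval 19.0 to 181-fold). In SCaBER its log2 fold change was -2.56 ± 0.55 (edgeR adjusted p = 0.00961), a call lost without siFOXA1.1 replicate 2 (adjusted p = 0.0501). HIST1H1E fell by 1.77 ± 0.55 in RT112 (adjusted p = 0.0186, edgeR) and by 2.83 ± 0.48 in SCaBER (adjusted p = 0.00203) on the log2 scale. The RT112 call was lost without siControl.1 replicate 1 or siFOXA1.1 replicate 2 (adjusted p up to 0.108). HIST1H1C, the most abundant of them, was at 145 to 173 CPM in the RT112 controls and 129 and 126 CPM under siFOXA1.1 (log2 fold change -0.17 ± 0.13, edgeR adjusted p = 0.342). In SCaBER it fell by 0.66 ± 0.20 (adjusted p = 0.0491, edgeR), a call lost in 8 of 13 alternatives.

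Of the tested clustered genes with a polyadenylation signal at a transcript end, 4 of 9 rose in RT112 and 2 of 7 in SCaBER. The others did not pass. Over all genes tested, 15.6% were called higher in RT112 and 4.47% in SCaBER. HIST1H2AC, a clustered H2A gene, was at 4.08, 4.98, 8.12 and 5.14 CPM in the RT112 controls, 135 and 108 CPM under siFOXA1.1, and 2.48 and 8.06 CPM under siFOXA1.2. Both siFOXA1.1 libraries were above all the others. The log2 fold change was 4.60 ± 0.32 (edgeR adjusted p = 6.44e-09), and an annotated gene overlaps it on the same strand. In SCaBER its controls were at 8.65, 2.18, 6.98 and 3.31 CPM and its siFOXA1.1 libraries at 17.4 and 53.7 CPM (2.75 ± 0.57, edgeR adjusted p = 0.0073). Without the second of these libraries the SCaBER change was 1.78 and no longer passed (adjusted p = 0.183).

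HIST2H2BE, a clustered H2B gene, was at 0.789, 7.85, 4.52 and 3.34 CPM in the RT112 controls and 26.1 and 18.1 CPM under siFOXA1.1. In SCaBER the controls were at 5.32, 6.23, 4.38 and 5.52 CPM and siFOXA1.1 at 18.0 and 44.5 CPM. It rose by similar amounts, 2.55 ± 0.63 (edgeR adjusted p = 0.00451) and 2.56 ± 0.45 (adjusted p = 0.0026), and in SCaBER lost its call without the second siFOXA1.1 library (1.82, adjusted p = 0.102). HIST1H2BD rose in RT112 from 7.89, 8.91, 8.52 and 11.5 CPM to 55.5 and 56.4 CPM (2.74 ± 0.32, edgeR adjusted p = 3.77e-06), and HIST3H2A from 5.13, 8.00, 13.2 and 7.78 CPM to 46.7 and 33.4 CPM (2.40 ± 0.38, adjusted p = 9.6e-05). In SCaBER neither passed: HIST1H2BD had 0.96 ± 0.38 (edgeR adjusted p = 0.142) and HIST3H2A 0.84 ± 0.97 (adjusted p = 0.679). Under siFOXA1.2 in RT112 HIST3H2A was at 1.89 to 4.92 CPM, under every control. HIST1H2BD was at 3.64 to 9.01 CPM and HIST2H2BE at 0.546 to 2.04 CPM, overlapping the controls, and none of these passed.

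**Figure D3:**
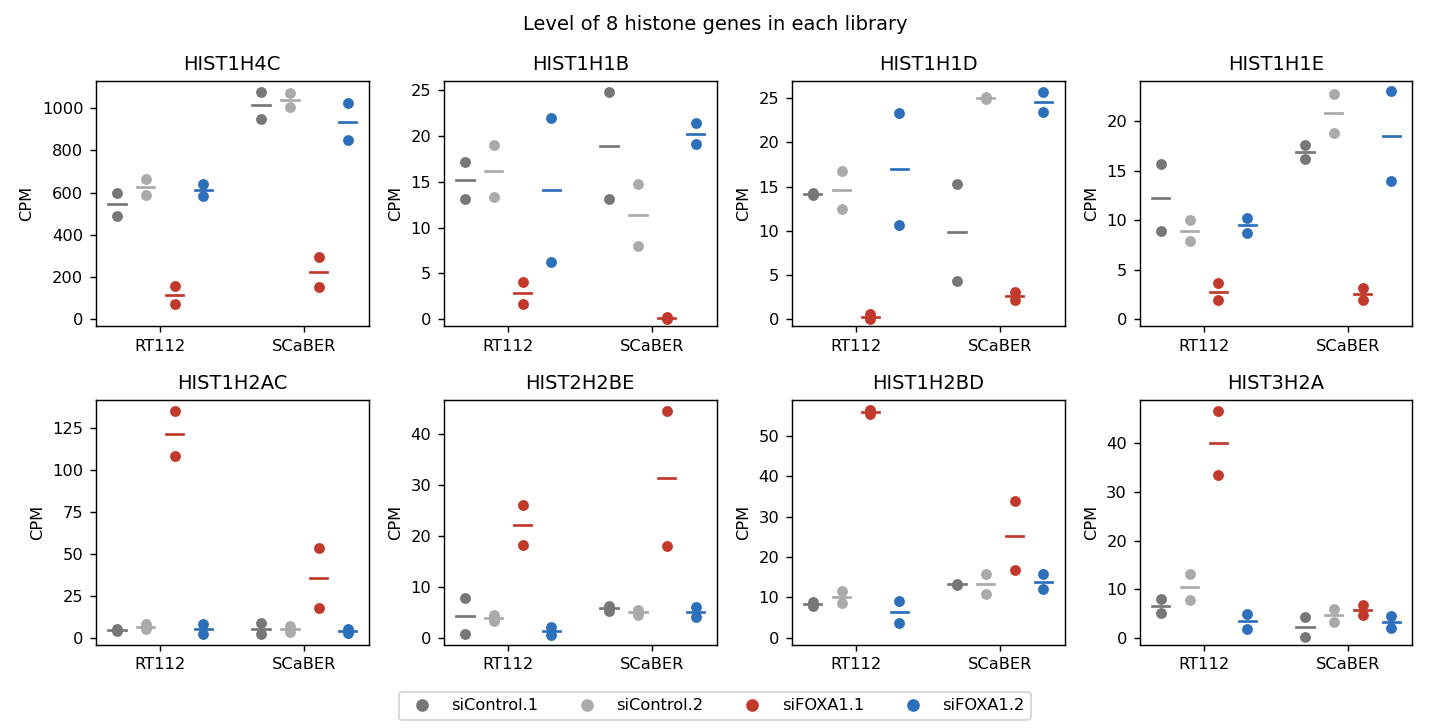
Level in CPM (vertical axis, linear, panels on separate scales) of 8 clustered histone genes in each of the 16 libraries, by line and siRNA, with a line at the mean of each pair. In RT112 the siFOXA1.1 points of the upper row lie under all others and those of the lower row above all others. The siFOXA1.2 points there overlap the controls except for HIST3H2A, where they lie under the controls.

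The neighbouring genes that could be tested did not move together in RT112. HIST2H2BE and HIST2H2AC start 236 bases apart on opposite strands of chromosome 1, and their upstream sequences meet between them. The 120 bases before each start (RefSeq, GRCh38.p14) are shown because these genes share 1 intergenic stretch and changed in opposite directions in RT112. Capitals mark 4 motifs on either strand, namely the octamer (ATTTGCAT), the CCAAT box, the TATA box (searched as TATAAA) and the H1 box (searched as AAACACA).
HIST2H2BE, chr1:149886683-149886802, minus strand: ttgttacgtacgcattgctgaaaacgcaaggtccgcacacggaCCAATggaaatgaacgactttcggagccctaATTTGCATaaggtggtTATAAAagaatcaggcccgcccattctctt
HIST2H2AC, chr1:149886798-149886917, plus strand: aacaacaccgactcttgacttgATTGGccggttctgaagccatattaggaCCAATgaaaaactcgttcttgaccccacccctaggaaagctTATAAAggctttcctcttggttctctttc
In RT112 HIST2H2AC fell from 11.0, 15.4, 13.6 and 22.8 CPM to 1.46 and 0.884 CPM (-3.57 ± 0.56, edgeR adjusted p = 8.4e-05), while HIST2H2BE rose. In SCaBER HIST2H2AC was at 32.0 and 3.33 CPM under siFOXA1.1 and at 19.6 to 38.6 CPM in the controls, and the difference did not pass (-0.61 ± 0.61, adjusted p = 0.616, edgeR). The same arrangement, within 1000 bases, was found for 11 pairs of members, of which 2 had both genes tested in each line. In the other, HIST1H2AC rose while HIST1H2BC, 246 bases away, was at 0.08 ± 1.1 in RT112 (edgeR adjusted p = 0.966).

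Promoter letters were shared by class. In the window from 250 bases before to 50 after the start, the octamer was in 11 of 16 clustered H2A promoters and 14 of 18 clustered H2B promoters, against 1.8% of 27305 promoters. The H1 box was in 6 of 6 clustered H1 promoters, against 5.76%. CCAAT was in every promoter found for clustered H1 (6), H2A (16), H2B (18) and H3 (12) genes and in 3 of 13 for H4, against 35.7%, and TATAAA in 11.95% of all promoters. HIST1H1B is shown for its H1 box and its pair of CCAAT letters.
HIST1H1B, chr6:27867589-27867708, minus strand: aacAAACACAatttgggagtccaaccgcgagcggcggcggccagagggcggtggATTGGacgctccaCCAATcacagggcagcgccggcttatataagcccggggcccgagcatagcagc
The windows of genes that start back to back overlap, so that 1 octamer can be counted for both genes of a pair, as in HIST2H2BE and HIST2H2AC. A match of letters is a description and not a bound site.

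Among the variants, 7 of 10 tested members passed in RT112 under siFOXA1.1 (median log2 fold change -0.76) and 3 of 9 in SCaBER (median -0.58), beside 10 of 21 (-0.20) and 7 of 18 (-0.48) of the clustered genes. Over all genes tested, 32.6% passed in RT112 and 9.26% in SCaBER. All 6 tested H2A variants fell in RT112 under siFOXA1.1, and 3 of 5 did in SCaBER. Of all genes, 17% were called lower in RT112 and 4.79% in SCaBER. H2AFZ was at 342, 298, 391 and 382 CPM in the RT112 controls, 187 and 151 CPM under siFOXA1.1 and 214 and 227 CPM under siFOXA1.2. It was the only member to pass under siFOXA1.2 in RT112 (-0.65 ± 0.12, edgeR adjusted p = 0.00546), and its change under siFOXA1.1 was -0.92 ± 0.12 (adjusted p = 1.24e-05). In SCaBER it was at 633, 740.0, 577 and 604 CPM, then 301 and 342 CPM (-0.95 ± 0.16, edgeR adjusted p = 0.00185), then 415 and 408 CPM (-0.61 ± 0.16, adjusted p = 0.448).

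H2AFX, which encodes the H2A.X that is phosphorylated at DNA breaks, fell by 1.37 ± 0.31 in RT112 (edgeR adjusted p = 0.00246) and was at -1.12 ± 0.40 in SCaBER (adjusted p = 0.101) on the log2 scale. H2AFY2, a macroH2A gene, fell in RT112 by 1.31 ± 0.29, H2AFV by 0.95 ± 0.14 and H2AFJ by 0.92 ± 0.21, and H2AFY, the other macroH2A gene, by 0.42 ± 0.12. In SCaBER H2AFV (-0.58 ± 0.17, edgeR adjusted p = 0.0471) and H2AFY (-0.66 ± 0.19, adjusted p = 0.0411) were close to the threshold. H3F3B, at 576 to 853 CPM in the RT112 controls, was at 688 and 665 CPM under siFOXA1.1 (0.10 ± 0.09, edgeR adjusted p = 0.44). H3F3A rose in RT112 (1.40 ± 0.47, adjusted p = 0.0282, edgeR), at no more than 12.7 CPM. The replacement linker histone genes H1F0 and H1FX did not pass in either line.

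Summed over members, clustered genes were lower under siFOXA1.1 than in any control. Their sum in RT112 was 776 to 973 CPM in the controls, 474 to 631 CPM under siFOXA1.1 and 855 to 899 CPM under siFOXA1.2. In SCaBER it was 1272 to 1436, 469 to 528 and 1188 to 1352 CPM. Without HIST1H4C the sum moved the other way in RT112, from 287 to 332 CPM in the controls to 401 to 476 CPM. Most of that rise was HIST1H2AC, whose mean went from 5.58 to 122 CPM while the mean sum went from 307 to 439 CPM. In SCaBER the sum without HIST1H4C was 324 to 358 CPM in the controls and 231 to 315 CPM under siFOXA1.1. The share of HIST1H4C in clustered counts went from 63.02 to 68.0% in the RT112 controls to 15.4 to 24.5%.

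**Figure D4:**
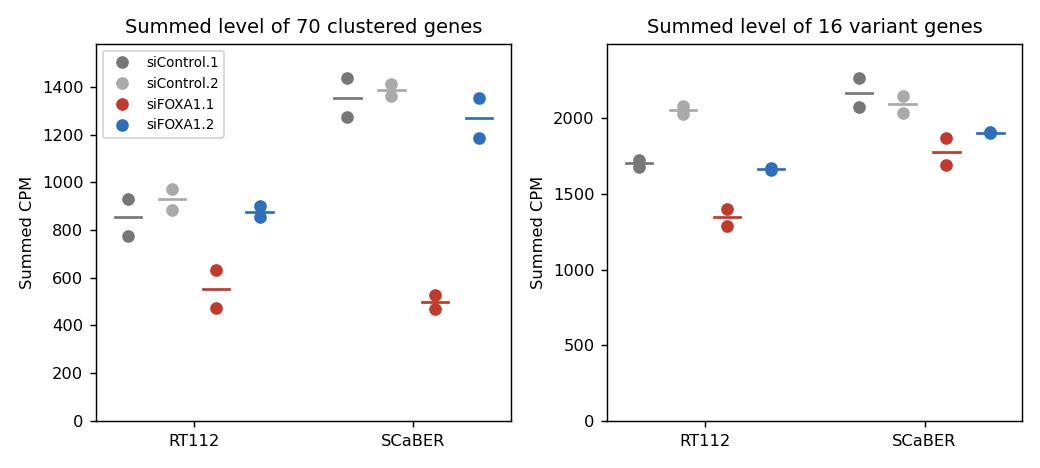
Summed CPM (vertical axis, from 0) of the 70 clustered genes and of the 16 variant genes in each library, by line and siRNA, with a line at the mean of each pair. The siFOXA1.1 points lie under the controls in both panels, for the clustered genes at 469 to 528 CPM in SCaBER.

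Under siFOXA1.2 few members differed from the controls, which it shares with siFOXA1.1. In RT112 1 of 31 passed, where 2.04% of all genes passed. In SCaBER edgeR called 0 of 27, where 0.042% of all genes passed, with 2 at an unadjusted p under 0.05 and 0 by DESeq2. The siRNAs against FOXA1 were also compared directly: 16 members passed in RT112 (5 higher under siFOXA1.1, 11 lower), where 28.1% of all genes did (13% and 15.1%), and 6 in SCaBER (2 higher, 4 lower), where 4.85% did (2.05% and 2.8%). Between the control siRNAs 1 member passed in RT112, H3F3B, against 2.36% of all genes, and edgeR called 0 in SCaBER against 0.0672%, with 3 at an unadjusted p under 0.05 and 1 by DESeq2. With the replicate number as a block that SCaBER count was 1, H1FX. With both FOXA1 siRNAs pooled against both controls, edgeR called 0 members in RT112 (0.108% of all genes, 5 members at an unadjusted p under 0.05, 1 by DESeq2) and 0 in SCaBER (0.0084%, 3 and 1).

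The change under siFOXA1.1 differed between the lines for 1 of 39 members, HIST1H1B, where 3.14% of 13701 genes did. Its log2 fold change in RT112 minus that in SCaBER was 4.80 ± 1.21 (edgeR interaction, adjusted p = 0.0358). With the replicate block 2 members passed, the other being HIST1H2BD (adjusted p = 0.0472). Under siFOXA1.2 edgeR called 0 of 39 members (0.0438% of all genes), 0 at an unadjusted p under 0.05 and 0 by DESeq2.

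The lines themselves differed under siControl in 10 of 33 members, where 43.4% of 12309 genes differed. RT112 was higher for H2AFY2, at 26.6 to 49.0 CPM against 0 to 1.33 CPM in SCaBER (5.90 ± 0.53, edgeR adjusted p = 4.73e-07). HIST1H3C had 55 counts in the RT112 controls and 0 in those of SCaBER, at least 14.6-fold higher against a floor of 3 counts over the group. H2AFJ (1.2 ± 0.23), H2AFX (0.98 ± 0.23) and H2AFY (0.70 ± 0.15) were also higher. Lower in RT112 were H2AFZ (-0.84 ± 0.12), HIST1H4C (-0.80 ± 0.11), HIST2H2AC, HIST1H1E and H2AFV. With the replicate block 7 passed, and HIST2H2AC, HIST1H1E and H2AFV no longer did (adjusted p = 0.0681, 0.418 and 0.0843).

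Other genes of histone supply were read from lists. Of 30 S-phase genes, 25 were lower and none higher under siFOXA1.1 in RT112 (median log2 fold change -1.29), where 17% of all genes were lower. In SCaBER 21 were lower and none higher (-1.08), where 4.79% of all genes were lower. The summed level of the S-phase genes was 2659 to 3182 CPM in the RT112 controls and 873 to 1289 CPM under siFOXA1.1. In SCaBER it was 3375 to 3802 and 1454 to 2065 CPM. Its part in the histone changes was not tested. Of 28 tested histone chaperones, 12 were lower and 2 higher in RT112, where 17% and 15.6% of all genes were, and 6 were lower in SCaBER, where 4.79% were. NASP, an H1 and H3-H4 chaperone, fell by 1.46 ± 0.13 in RT112 (edgeR adjusted p = 2.19e-07) and by 1.24 ± 0.20 in SCaBER (adjusted p = 0.00136). HJURP, the chaperone of the centromeric H3, fell by 2.48 ± 0.24 and 1.74 ± 0.24, ASF1B by 2.15 ± 0.28 and 1.39 ± 0.29, and CHAF1A, a subunit of the assembly factor CAF-1, by 1.92 ± 0.22 and 0.94 ± 0.24. SET fell by 0.92 ± 0.08 in RT112 and was at -0.46 ± 0.17 in SCaBER (edgeR adjusted p = 0.118).

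Of 22 factors of histone gene expression, 4 were lower and 2 higher in RT112, and 1 was lower in SCaBER, shares near or under those of all genes. SLBP, which binds the stem-loop, fell by 1.38 ± 0.22 in RT112 (edgeR adjusted p = 0.000102) and was at -0.44 ± 0.29 in SCaBER (adjusted p = 0.422). CCNE1, a cyclin E gene, fell by 4.04 ± 0.54 in RT112 (adjusted p = 1.6e-05, edgeR) and was at -0.95 ± 0.86 in SCaBER. The kinase of cyclin E acts on NPAT. CCNE2, the other cyclin E gene, was at -3.07 ± 0.45 in SCaBER under siFOXA1.1 (edgeR adjusted p = 0.000653). NPAT, the coactivator of clustered histone genes, was at 0.31 ± 0.23 in RT112 (edgeR adjusted p = 0.339) and -0.15 ± 0.32 in SCaBER (adjusted p = 0.848).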

How the data were processed

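RNA of 16 siRNA-treated libraries was measured with a 3' mRNA kit. The authors trimmed reads with TrimGalore 0.6.2 (minimum quality 20, minimum length 10), aligned them to hg38 with STAR 2.6.1a and deposited raw counts per gene on GENCODE 29, per the deposited configuration, whereas the methods name hg19. The authors also deposited TPM, counts divided by gene length and brought to one common total. TPM served for levels between genes only. Each line was fitted on all genes with edgeR 4.0.16 (R 4.3.3, TMM, filterByExpr over the siControl and siFOXA1 groups, quasi-likelihood F test, Benjamini-Hochberg adjustment over all genes tested, threshold 0.05). The filter can keep a gene through the group in which it is high. CPM are counts over library totals. Transcript ends were read from GENCODE 44, which matched 78 of 86 members by identifier. Promoters and positions are from RefSeq GRCh38.p14.

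Members, lists and the rule for named genes were chosen with earlier results of these data known. Named were up to 8 called members per line with the lowest p and a mean of at least 20 counts, a set of well-known members, SLBP, NPAT and up to 6 further called list genes. Others named, such as HIST1H2AJ, HIST1H3C, HIST1H2BC, H2AFY2 and CCNE2, were chosen after their values were seen. The labels name the replicate number an experiment batch, so it pairs libraries. Deviations of equally numbered libraries correlated at -0.0158 to 0.00592 in RT112 and 0.00587 to 0.160 in SCaBER. Alternatives were DESeq2 1.42.0, library totals without TMM, a filter of 1 count, the replicate block, leaving out each library and, added after the data were seen, filtering by siRNA. The fit was tested on simulated counts.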

Additional observations from a re-analysis of the deposited data

Results flagged for a closer look

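HIST1H1B differed between the lines in its change under siFOXA1.1, by 4.80 on the log2 scale (edgeR interaction, adjusted p = 0.0358). The SCaBER side rests on 1 count under siFOXA1.1, and leaving out single libraries gave 0 to 3 called members. HIST1H1B itself was called in 11 of 21 alternatives.

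A pair of annotated H2B pseudogenes that were not members held counts above every control in RT112 under siFOXA1.1. HIST2H2BD was at 25.8 and 15.6 CPM there and at 1.06 to 9.03 CPM in the controls (log2 fold change 2.45 ± 0.56, edgeR adjusted p = 0.00254). HIST2H2BC was at 8.93 and 7.07 CPM and at 0.532 to 5.59 CPM in the controls (1.54 ± 0.80, adjusted p = 0.156). No gap among the 4 siControl libraries passed Dixon's criterion in the 38 groups of named genes examined.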

How the results depend on the processing

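Among called genes no change turned its direction under any alternative run. The count of members called was within 1.5 times in all alternatives not listed here. Under DESeq2 the pooled comparison gave 1 member in RT112 and 1 in SCaBER, siControl.1 against siControl.2 in SCaBER gave 1, and the difference between lines under siFOXA1.1 gave 3. With a filter of 1 count these were 2, 5, 1 and 3. With the replicate block siControl.1 against siControl.2 in SCaBER gave 1 and the difference between lines 2. The block also added HIST1H2AJ in SCaBER under siFOXA1.1 (adjusted p = 0.0259) and against siFOXA1.2 (adjusted p = 0.0324). Beside these and the 3 calls between lines named above it changed no call. Leaving out single libraries gave 14 to 18 called members in RT112 and 6 to 12 in SCaBER under siFOXA1.1, the lowest without SCaBER siFOXA1.1 replicate 2. It gave 0 to 1 under siFOXA1.2 in RT112, 10 to 16 and 2 to 9 between the FOXA1 siRNAs in RT112 and SCaBER, 0 to 1 between the control siRNAs in each line, 8 to 13 between the lines and 0 to 3 for the difference under siFOXA1.1. Where 1 library of a siRNA remained, it was assumed to vary like the others. The H2AFZ call under siFOXA1.2 was lost without either siFOXA1.2 library. In SCaBER H2AFV, H2AFY and HIST1H1C lost their call in 9, 8 and 8 of 13 alternatives, and HIST1H1D, HIST1H2AC and HIST2H2BE in 1 each, without siFOXA1.1 replicate 2. In RT112 H3F3A lost it in 4, HIST1H1E in 2 and H2AFY in 1. Between the lines HIST1H1E lost it in 8 of 12, HIST2H2AC in 6 and H2AFV in 1. The median number of members at the floor per library was 37, and 42 or 31 with a floor of 1 or 10 counts. Depth limits members under about 10 counts, most clustered H3 genes among them.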
